A study of Saccharomyces cerevisiae with 30 samples.

Results

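The genes described here are 38 of the 6101 genes listed in each of 2 expression tables from budding yeast. They comprise every gene named PEX with a number, which encode peroxins, together with ANT1, PXA2, PCS60, LPX1, DNM1, FIS1, INP1, INP2, OAF1 and PIP2. RNA was sequenced from 30 libraries of the haploid strain BY4741, its Gcn5 bromodomain mutant (Gcn5m), its Spt7 bromodomain mutant (Spt7m) and its Ada3 acetylation mutant (Ada3-3KR). All 3 proteins belong to SAGA, a coactivator complex that acetylates histones, and bromodomains bind acetylated lysines. Cells were grown in rich medium with glucose and then kept for 30 min in YP medium, a yeast extract and peptone broth, with 2% sucrose or 2% glucose. The bromodomain set held Gcn5m in sucrose and in glucose, Spt7m in sucrose and in glucose, and its own wild type (WT) in sucrose and in glucose. The Ada3 set held Ada3-3KR in sucrose and in glucose and another WT in sucrose and in glucose. There were 10 groups with 3 libraries in each. Neither the residues changed nor the number of clones behind a mutant is in the labels. Whether replicates came from separate cultures is not stated either, so p-values reflect only how these libraries vary, and that variation may be technical.

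Peroxisomes are single-membrane organelles that in yeast house all of fatty acid beta-oxidation and part of the glyoxylate cycle. Peroxins import matrix proteins after synthesis, insert membrane proteins, and set the size and number of the organelles. Their genes are known to be held low by glucose and to be induced when oleate is the carbon source, through the zinc cluster factors Oaf1 and Pip2, which bind oleate response elements as a pair, and through Adr1, a zinc finger activator that is active when glucose runs out.

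Values are FPKM, a read density normalized by the authors to gene length and library size, and sequencing depth is unknown. FPKM summed to between 1223881 and 1288949 per library in the Ada3 set and to between 1152780 and 1283727 in the bromodomain set, and libraries of a group correlated across genes at 0.994 to 0.998. All 38 genes had a mean of at least 1 FPKM in both sets and were tested. In bulk RNA, fewer cells that express a gene and less RNA per cell cannot be told apart. Of 6 markers of mating type a, all were high in every library (MFA1 was at 1423 FPKM or more), and none was below 94.1 FPKM. Of 4 markers of mating type alpha, MF(ALPHA)1 and STE3 were at 3.99 FPKM or less, while MF(ALPHA)2 read 6.57 to 12.97 FPKM and SAG1 16.2 to 31.7 FPKM. BY4741 is of mating type a. Of the genes deleted in BY4741, LEU2 and MET17 were at 0.136 FPKM or less throughout, while HIS3 read 56.8 FPKM or more. URA3 differed between strains of the bromodomain set: it read 223 to 254 FPKM in Gcn5m in sucrose, 399 to 444 FPKM in Gcn5m in glucose, 7079 to 10102 FPKM in Spt7m in sucrose and 9581 to 11463 FPKM in Spt7m in glucose, against at most 2.3 FPKM in WT. URA3 expression and the bromodomain mutations therefore cannot be told apart in any comparison of Gcn5m or Spt7m with WT. In the Ada3 set URA3 read at most 0.398 FPKM in every group.

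The 38 promoters were searched, in the R64 genome from RefSeq, for the letters of the oleate response element, CGG, 3 bases, T, 1 base and A, followed by 8 to 12 bases and CCG, on both strands from 250 bases before to 50 bases after the start codon. The element's letters occurred before ANT1, PEX2, PEX5, PEX6, PEX11, PEX13, PEX17 and PIP2, that is in 8 of 38 promoters (21.1%), against 60 of 6001 promoters of the genome (1%). In the 600 bases before the start codon they occurred in 10 of 38 (26.3%, adding PEX14 and PXA2), against 156 of 5999 (2.6%). The core letters bound by Adr1, TTGGAG or TTGGGG on either strand, occurred in 11 of 38 promoters (28.9%) of the shorter window, against 986 of 6001 (16.4%), and in 13 of 38 (34.2%) of the longer one, against 1926 of 5999 (32.1%). No match of one motif overlapped a match of the other, and PIP2's element matched the pattern on both strands and was counted once. A match describes letters only and does not show binding. The elements below are those of PEX11 and PIP2, whose RNA differed most from WT among genes with one in the shorter window, of PEX5 and PEX6, and of PEX13, whose RNA did not pass the test in either bromodomain mutant against WT in sucrose. The PEX9 lines hold that gene's pair of Adr1 cores. Sequences run 5′ to 3′ on the strand of the gene in build R64, and capitals mark the match.
PEX11 (chrXV:48736-48798, minus strand): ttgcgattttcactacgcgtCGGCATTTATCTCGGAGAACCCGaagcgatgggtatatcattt
PIP2 (chrXV:1023328-1023388, minus strand): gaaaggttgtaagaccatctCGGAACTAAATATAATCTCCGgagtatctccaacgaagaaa
PEX5 (chrIV:950368-950429, plus strand): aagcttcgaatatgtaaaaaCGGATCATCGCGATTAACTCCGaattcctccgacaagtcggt
PEX6 (chrXIV:22734-22797, minus strand): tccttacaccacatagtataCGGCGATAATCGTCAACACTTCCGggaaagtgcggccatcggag
PEX13 (chrXII:537096-537159, plus strand): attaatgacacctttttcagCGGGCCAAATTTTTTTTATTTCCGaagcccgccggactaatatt
PEX9 (chrXIII:310026-310071, plus strand): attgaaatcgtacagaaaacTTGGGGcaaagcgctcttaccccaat
PEX9 (chrXIII:310045-310090, plus strand): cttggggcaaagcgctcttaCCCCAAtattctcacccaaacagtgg
PEX9 carried its cores from positions -162 and -143 relative to the start codon, on opposite strands, and had no oleate response element in either window. LPX1 had no match of either motif in either window.

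**Figure D1:**
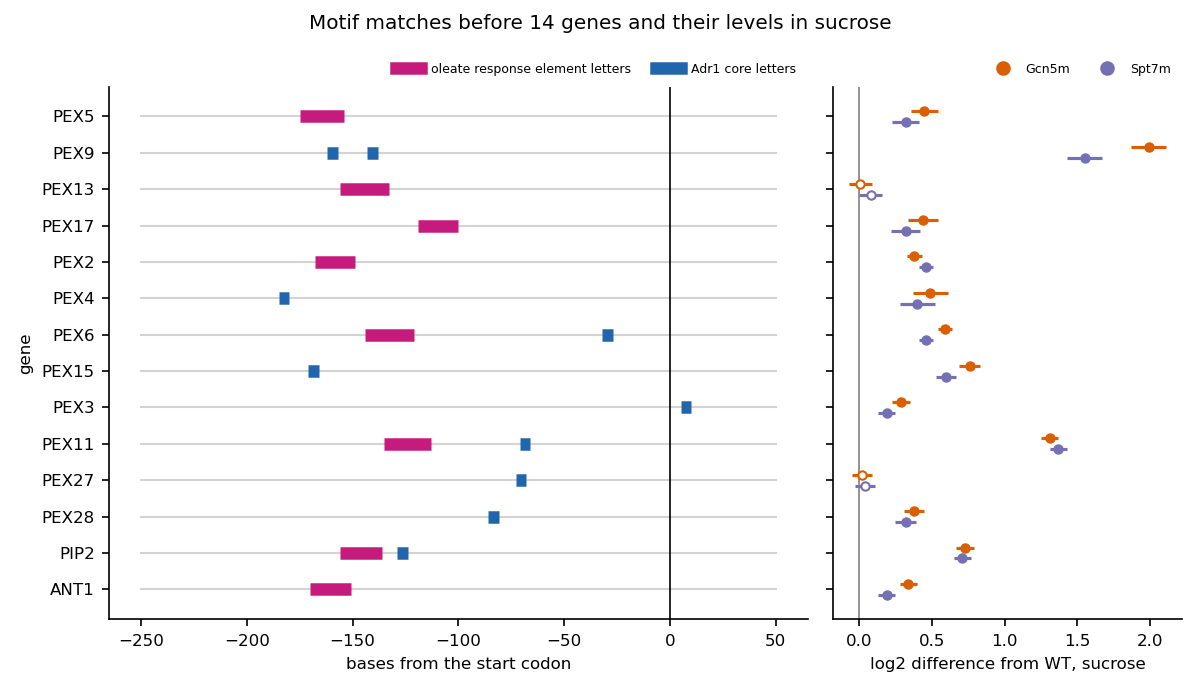
Left, positions of oleate response element letters (pink) and Adr1 core letters (blue) in bases from the start codon for 14 genes with a match in the window from 250 bases before to 50 after it. Right, log2 difference from WT in sucrose ± SE for Gcn5m (orange) and Spt7m (purple), 3 libraries a group, filled where the adjusted p is under 0.05; PEX9 and PEX11 lie farthest to the right, and PEX13 and PEX27 are open in both mutants.

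In the bromodomain set mean FPKM over all libraries was highest for PEX2 (119.6) and PCS60 (116) and lowest for PEX9 (5.47). In the Ada3 set PCS60 was highest (148), with FIS1 (109) next, and PEX9 was lowest (1.55), at the 5th percentile of all genes. PEX9 in the Ada3 set stayed between 1.04 and 1.9 FPKM in every library.

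The first question was how these genes respond in WT when sucrose replaces glucose. In WT of the bromodomain set 31 of the 38 genes rose and none fell, where 66.7% of all 5841 tested genes were called (50.9% higher, 15.7% lower). In WT of the Ada3 set 26 rose and none fell, where 46.6% of 5830 genes were called (32.7% higher, 13.9% lower). The median log2 change of the 38 was 0.42 against 0.17 for all genes in the bromodomain set, and 0.22 against 0.08 in the Ada3 set. For the sugars, a gene that rose is one higher in sucrose and a gene that fell is one lower there. Changes are differences of log2(FPKM + 1), and a gene counts as changed when limma's Benjamini-Hochberg adjusted p is under 0.05. The number of genes counted as rising depends on how libraries are scaled to each other. Quantile normalization and median rescaling moved the median of all genes by -0.21 and -0.25 in WT of the bromodomain set and by -0.11 and -0.12 in WT of the Ada3 set. With them 21 genes rose and 6 fell (quantile) or 20 rose and 6 fell (median) in the bromodomain set, and 13 rose and 3 fell in the Ada3 set. Relative to the median of all genes the 38 moved by 0.24, 0.23 and 0.24 in the bromodomain set, and by 0.14, 0.12 and 0.14 in the Ada3 set, with the deposited scale, quantile normalization and median rescaling in that order.

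Of the 17 genes for import of matrix proteins, 16 rose in WT of the bromodomain set (median 0.52) and 14 in WT of the Ada3 set (0.35), and with either scaling 13 and 8 of them still rose, against 1 and 0 that fell. All 5 receptor and co-receptor genes rose in both sets. PEX21, which encodes a co-receptor for proteins with the second type of peroxisomal targeting signal, changed by 1.31 ± 0.09 in the bromodomain set and by 0.54 ± 0.09 in the Ada3 set. PEX18, for another co-receptor of these proteins, changed by 0.91 ± 0.12 and 0.75 ± 0.11. PEX13, which encodes a docking protein of the peroxisomal membrane, changed by 0.88 ± 0.08 (38.4 ± 0.628 FPKM in sucrose and 20.5 ± 2.62 FPKM in glucose, SD, n = 3) and by 0.62 ± 0.08 (26.7 ± 1.66 FPKM in sucrose and 17.1 ± 2.03 FPKM in glucose). DNM1, which encodes a dynamin-related GTPase that divides peroxisomes and mitochondria, changed by 0.87 ± 0.05 and 0.48 ± 0.05. PEX11, which encodes the main proliferation factor, changed by 0.90 ± 0.06 in the bromodomain set and by 0.22 ± 0.06 in the Ada3 set, where the call was lost with quantile normalization or median rescaling (log2 0.09 to 0.12, adjusted p = 0.0997 to 0.218).

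Of the oleate regulators, PIP2 rose in WT and OAF1 did not pass the test. PIP2 had 18.4, 17.6 and 17.02 FPKM in sucrose and 11.9, 13.8 and 13.3 FPKM in glucose in the bromodomain set, with no overlap (0.42 ± 0.06), as for 69.1% of all genes. In the Ada3 set it had 16.1, 15.2 and 13.96 FPKM in sucrose and 12.7, 12.9 and 12.8 FPKM in glucose (0.22 ± 0.06), a call lost with quantile normalization or median rescaling (log2 0.06 to 0.10, adjusted p = 0.184 to 0.384). OAF1 had 18.5, 17.1 and 17.9 FPKM in sucrose and 17.2, 16.2 and 16.9 FPKM in glucose in the bromodomain set (0.08 ± 0.06, adjusted p = 0.242), and both scalings turned it to a fall of -0.17 (adjusted p = 0.0207 and 0.0279). In the Ada3 set OAF1 had 15.6, 15.1 and 14.9 FPKM in sucrose and 14.3, 14.2 and 15.9 FPKM in glucose (0.04 ± 0.06, adjusted p = 0.666). OAF1 libraries of the sugars lay close to each other in both sets, within a range of 14.2 to 18.5 FPKM.

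**Figure D2:**
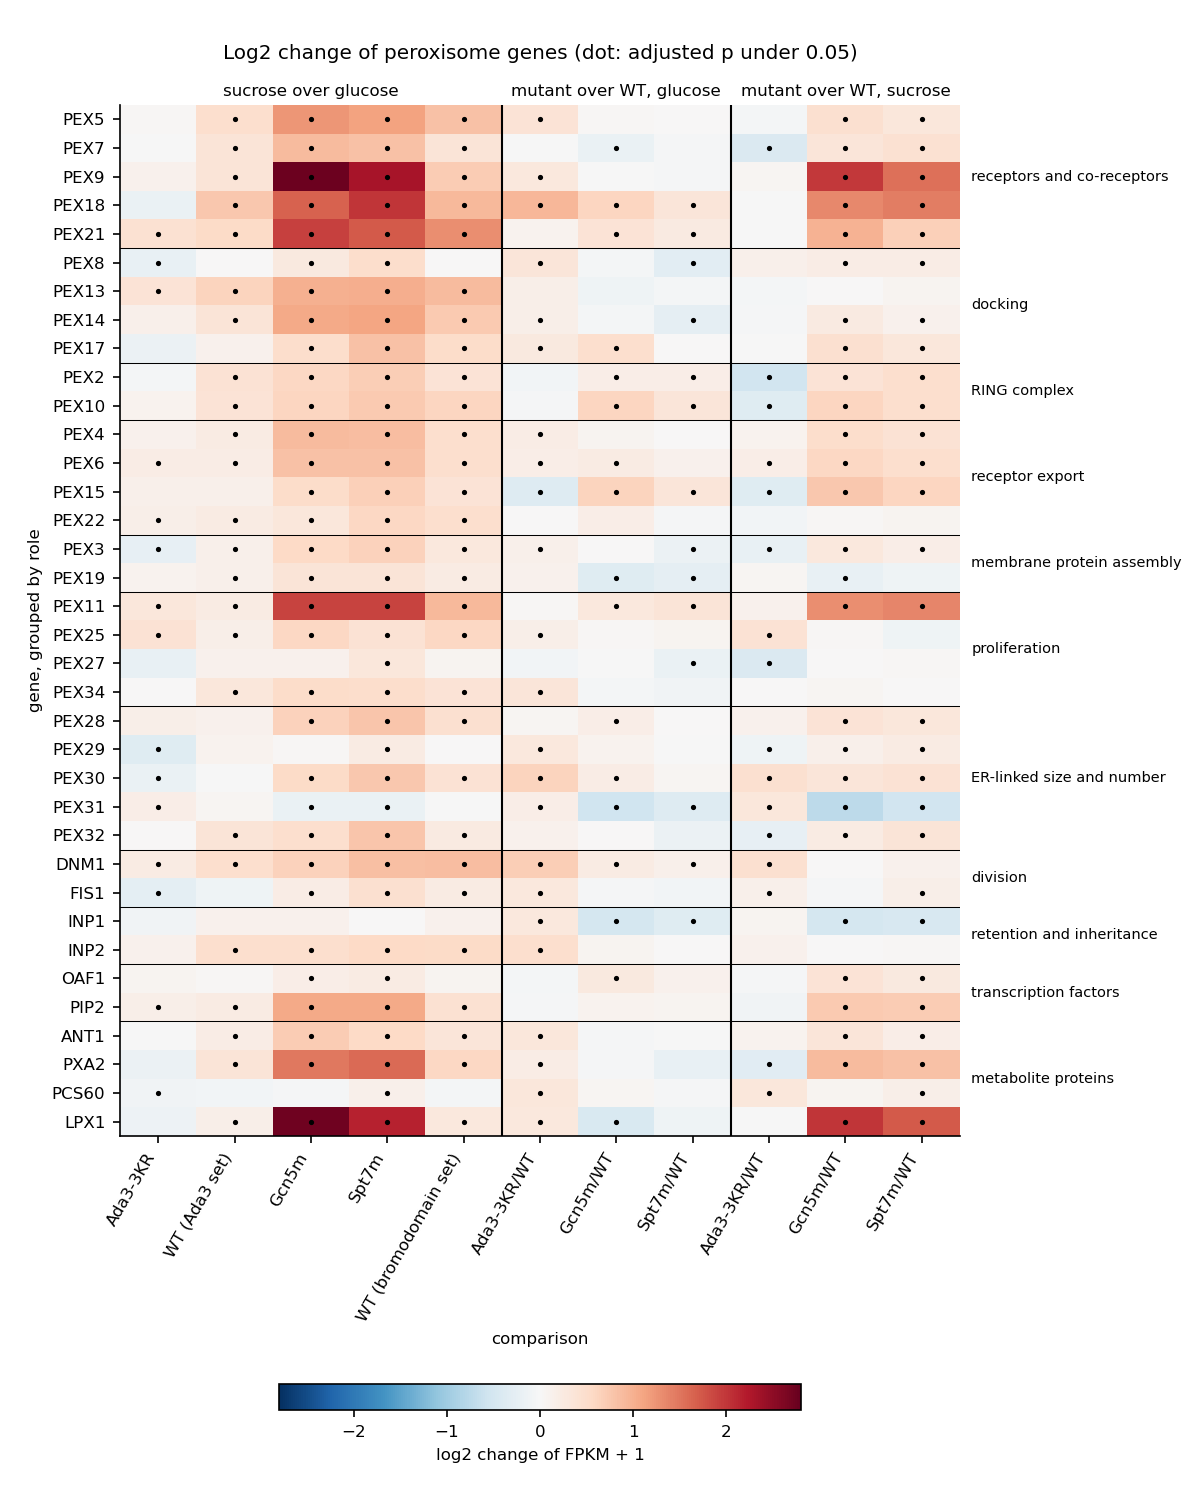
Log2 change of FPKM + 1 (colour) for 36 of the genes, grouped by role (rows), in the comparisons of sucrose with glucose and of each mutant with its WT (columns), 3 libraries a group; a dot marks an adjusted p under 0.05. The deepest red lies in the Gcn5m and Spt7m columns at PEX9, LPX1, PEX11, PEX18, PEX21 and PXA2, while small sucrose changes of genes such as OAF1, FIS1, PEX19 and PEX29 turn sign with other scalings of the libraries.

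The bromodomain mutants were compared with WT to ask whether these genes respond differently to sucrose when a bromodomain of SAGA is altered. In sucrose, 25 of the 38 genes were higher and 3 lower in Gcn5m than in WT, where 70.6% of all genes were called (28% higher, 42.6% lower). In Spt7m 27 were higher and 2 lower, where 70.3% were called (28.8% higher, 41.5% lower). The median difference of the 38 was 0.34 in Gcn5m and 0.29 in Spt7m, against -0.09 and -0.08 for all genes. Groups without overlap were common. Gcn5m and WT in sucrose did not overlap for 28 of the 38, where 73.5% of all genes did not. For Spt7m this held for 31, where 72.7% of all genes did not overlap. In glucose it held for 19 in Gcn5m (63.4% of all genes) and for 15 in Spt7m (61.1%). Within each mutant, 33 rose and 1 fell in Gcn5m in sucrose (74% of genes called, 52.2% higher and 21.8% lower), and 36 rose and 1 fell in Spt7m (76% called, 51.6% higher and 24.4% lower). Relative to the median of all genes these sucrose changes had medians of 0.39 in Gcn5m and 0.56 in Spt7m, against 0.24 in WT. Both scalings moved the median of all genes in the mutants by -0.22 to -0.26, and with them 26 to 28 genes rose and 3 fell in Gcn5m, and 29 or 30 rose and 2 or 3 fell in Spt7m. Gcn5m and Spt7m share the WT libraries as controls, and they were not tested against each other.

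Among the import genes the largest differences were in receptors. PEX9 (YMR018W, chromosome XIII, 310208 to 311752) encodes a receptor for a subset of proteins with the first type of targeting signal. PEX9 had 14.8, 15.7 and 14.3 FPKM in Gcn5m in sucrose, 11.1, 11.6 and 9.44 FPKM in Spt7m in sucrose and 2.5, 3.59 and 2.97 FPKM in WT in sucrose. In glucose PEX9 had 1.49, 1.41 and 1.26 FPKM in Gcn5m, 1.29, 1.25 and 1.54 FPKM in Spt7m and 1.38, 1.13 and 1.8 FPKM in WT. PEX9 was low in every glucose library and stood above that without overlap in WT in sucrose (mean 3.02 FPKM, against 1.44 FPKM in WT in glucose). In all 6 mutant libraries in sucrose it stood far above the glucose libraries. Against WT in sucrose its difference was 1.99 ± 0.12 in Gcn5m (adjusted p = 4.77e-11) and 1.55 ± 0.12 in Spt7m (adjusted p = 1.79e-09), on a scale that understates the change of so low a gene.

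The co-receptor genes were also higher in both mutants in sucrose. PEX18 had 35.4, 35.9 and 33.5 FPKM in Gcn5m in sucrose, 36.2, 37.2 and 37.98 FPKM in Spt7m in sucrose and 15.03, 14.96 and 9.95 FPKM in WT in sucrose. In glucose PEX18 had 10.6, 10.5 and 10.1 FPKM in Gcn5m, 9.08, 9.56 and 7.13 FPKM in Spt7m and 7.35, 6.51 and 5.76 FPKM in WT. All mutant libraries in sucrose exceeded all WT libraries in sucrose, by 1.35 ± 0.12 in Gcn5m and 1.44 ± 0.12 in Spt7m, and WT replicate 3 in sucrose was the lowest of its group. PEX21 had 78.9, 79.7 and 78.1 FPKM in Gcn5m in sucrose, 67.9, 65.9 and 55.6 FPKM in Spt7m in sucrose and 38.4, 40.97 and 39.2 FPKM in WT in sucrose. In glucose PEX21 had 17.1, 20.2 and 24.1 FPKM in Gcn5m, 18.9, 18.96 and 17.7 FPKM in Spt7m and 15.7, 15.03 and 15.2 FPKM in WT. Again no mutant library in sucrose overlapped WT in sucrose, with differences of 0.98 ± 0.09 in Gcn5m and 0.66 ± 0.09 in Spt7m. PEX18 and PEX21 both act with Pex7, the receptor of the second targeting signal.

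The genes of the receptors Pex5 and Pex7 differed less. PEX5 had 58.2, 57.7 and 54.3 FPKM in Gcn5m in sucrose, 50.5, 50.2 and 55.2 FPKM in Spt7m in sucrose and 39.4, 39.6 and 45.4 FPKM in WT in sucrose. In glucose this gene, for the main receptor of the first targeting signal, had 21.7, 22.7 and 26.5 FPKM in Gcn5m, 22.8, 23.9 and 23.3 FPKM in Spt7m and 22.9, 20.1 and 26.4 FPKM in WT. The sucrose groups of both mutants lay above that of WT without overlap (0.45 ± 0.09 in Gcn5m and 0.32 ± 0.09 in Spt7m), while the glucose groups of the 3 strains overlapped. PEX7 had 46.8, 44.7 and 49.8 FPKM in Gcn5m in sucrose, 49.5, 50.98 and 49.7 FPKM in Spt7m in sucrose and 39.5, 38.7 and 32.97 FPKM in WT in sucrose. In glucose PEX7 had 25.4, 26.9 and 22.9 FPKM in Gcn5m, 27.5, 27.8 and 28.1 FPKM in Spt7m and 28.3, 28.9 and 27.96 FPKM in WT. PEX7 differed from WT in sucrose by 0.34 ± 0.07 in Gcn5m and 0.43 ± 0.07 in Spt7m, also without overlap.

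The docking and RING complexes receive the receptors at the membrane and attach ubiquitin to them. PEX14 had 71.1, 65.6 and 65.6 FPKM in Gcn5m in sucrose, 61.3, 61.8 and 59.8 FPKM in Spt7m in sucrose and 56.7, 52.8 and 58.4 FPKM in WT in sucrose. In glucose PEX14 had 32.4, 30.3 and 33.04 FPKM in Gcn5m, 27.7, 28.5 and 27.1 FPKM in Spt7m and 32.3, 34.98 and 32.2 FPKM in WT. For this docking gene the differences in sucrose were 0.26 ± 0.05 in Gcn5m and 0.12 ± 0.05 in Spt7m, and the call in Spt7m was lost with the replicate block or only the compared groups fitted, and on leaving out Spt7m sucrose library 1 or 2, or WT sucrose library 1 or 2 (log2 0.08 to 0.13, adjusted p = 0.0521 to 0.196). PEX17 had 29.9, 30.3 and 30.1 FPKM in Gcn5m in sucrose, 25.2, 26.98 and 31.03 FPKM in Spt7m in sucrose and 20.9, 21.6 and 23.6 FPKM in WT in sucrose. In glucose PEX17 had 21.9, 20.2 and 21.3 FPKM in Gcn5m, 15.96, 14.3 and 15.3 FPKM in Spt7m and 18.8, 13.8 and 12.99 FPKM in WT. PEX17, another docking gene, differed in sucrose by 0.44 ± 0.10 in Gcn5m and 0.32 ± 0.10 in Spt7m, where the call was lost on leaving out Spt7m sucrose library 3 (log2 0.24, adjusted p = 0.0611). PEX13 did not pass the test in Gcn5m (0.01 ± 0.08, adjusted p = 0.92) or in Spt7m (0.08 ± 0.08, adjusted p = 0.38). PEX2 and PEX10, which encode RING ubiquitin ligases, were higher in Gcn5m by 0.38 ± 0.05 and 0.61 ± 0.07 and in Spt7m by 0.46 ± 0.05 and 0.46 ± 0.07.

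Receptor export returns receptors to the cytosol, and PEX6 encodes an AAA ATPase that pulls ubiquitinated receptors out of the membrane. PEX6 had 41.5, 41.3 and 41.9 FPKM in Gcn5m in sucrose, 37.8, 37.1 and 38.5 FPKM in Spt7m in sucrose and 26.4, 27.9 and 27.6 FPKM in WT in sucrose. In glucose PEX6 had 22.4, 22.95 and 23.8 FPKM in Gcn5m, 21.7, 20.4 and 21.1 FPKM in Spt7m and 20.6, 19.4 and 18.3 FPKM in WT. The mutant libraries of PEX6 in sucrose all lay above those of WT, by 0.59 ± 0.05 in Gcn5m and 0.46 ± 0.05 in Spt7m. PEX4 had 77.3, 65.01 and 61.7 FPKM in Gcn5m in sucrose, 63.2, 65.8 and 61.1 FPKM in Spt7m in sucrose and 56.7, 47.3 and 40.8 FPKM in WT in sucrose. In glucose PEX4 had 36.9, 40.3 and 31.3 FPKM in Gcn5m, 33.9, 39.5 and 30.6 FPKM in Spt7m and 32.7, 36.6 and 33.2 FPKM in WT. The sucrose groups of PEX4, for the ubiquitin-conjugating enzyme, did not overlap (0.49 ± 0.12 in Gcn5m and 0.40 ± 0.12 in Spt7m), but WT ranged more widely than for its neighbours in the pathway. PEX15, for the membrane anchor of Pex6, was higher by 0.76 ± 0.07 in Gcn5m and 0.60 ± 0.07 in Spt7m, and PEX22, for the anchor of Pex4, did not pass the test (0.03 ± 0.09, adjusted p = 0.751 and 0.07 ± 0.09, adjusted p = 0.497).

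Among the genes for membrane assembly, size and number, PEX11 stood apart. PEX11 lies on chromosome XV (YOL147C, 47933 to 48643, minus strand), and its element is the first sequence shown above. PEX11 had 210.4, 211 and 203 FPKM in Gcn5m in sucrose, 214, 208 and 230.2 FPKM in Spt7m in sucrose and 83.3, 77.04 and 90.7 FPKM in WT in sucrose. In glucose PEX11 had 54.4, 57.6 and 53.1 FPKM in Gcn5m, 59.5, 59.4 and 54.6 FPKM in Spt7m and 45.3, 42.01 and 46.1 FPKM in WT. Both mutants in sucrose exceeded every other group by more than the spread of any of them, with differences from WT of 1.31 ± 0.06 in Gcn5m (adjusted p = 1.28e-12) and 1.37 ± 0.06 in Spt7m (adjusted p = 8.91e-13). Its relatives in proliferation, PEX25, PEX27 and PEX34, did not pass the test in sucrose in either mutant, with differences between -0.12 and 0.06. Of the 5 ER-linked genes that set peroxisome size and number, 4 were higher and PEX31 was lower in each mutant.

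PEX31 had 14.3, 13.6 and 11.9 FPKM in Gcn5m in sucrose, 16.7, 13.8 and 15.3 FPKM in Spt7m in sucrose and 23.01, 21.3 and 23.4 FPKM in WT in sucrose. In glucose PEX31 had 15.6, 14.6 and 15.6 FPKM in Gcn5m, 17.4, 18.2 and 16.6 FPKM in Spt7m and 21.8, 22.4 and 24.1 FPKM in WT. Every mutant library lay below every WT library in the same sugar, by -0.73 ± 0.07 in Gcn5m and -0.54 ± 0.07 in Spt7m in sucrose. On the deposited scale PEX31 was also the one gene of the 38 counted as falling in sucrose within each mutant. The change was -0.19 ± 0.07 in Gcn5m and -0.18 ± 0.07 in Spt7m. With quantile normalization or median rescaling PCS60 and PEX29 also fell in Gcn5m and PCS60 in Spt7m, where median rescaling added INP1. PEX31 itself then fell by -0.27 in WT. Its falls in the mutants were larger (-0.40 and -0.45 in Gcn5m, -0.38 and -0.44 in Spt7m, quantile first). The fall in Gcn5m was lost with only the compared groups fitted, and on leaving out Gcn5m glucose library 1 or 3, or Gcn5m sucrose library 3 (log2 -0.12 to -0.19, adjusted p = 0.0512 to 0.159). The fall in Spt7m was lost with only the compared groups fitted, and on leaving out Spt7m glucose library 1 or 2, or Spt7m sucrose library 2 or 3 (log2 -0.11 to -0.18, adjusted p = 0.0616 to 0.199). PEX32 had 32.7, 31.2 and 26.6 FPKM in Gcn5m in sucrose, 32.1, 33.2 and 34.7 FPKM in Spt7m in sucrose and 23.8, 23.9 and 29.6 FPKM in WT in sucrose. In glucose PEX32 had 21.01, 21.5 and 21.7 FPKM in Gcn5m, 19.996, 18.4 and 18.8 FPKM in Spt7m and 25.5, 19.7 and 19.6 FPKM in WT. PEX32 was higher in sucrose by 0.22 ± 0.10 in Gcn5m, where the groups overlapped and the call was lost with a pseudocount of 0.1, no filter on low values, the replicate block or only the compared groups fitted, and on leaving out Gcn5m sucrose library 1 or 2, or WT sucrose library 1 or 2 (log2 0.16 to 0.23, adjusted p = 0.0503 to 0.189), and by 0.37 ± 0.10 in Spt7m. WT replicate 3 in sucrose and WT replicate 1 in glucose stood above their groups for PEX32. PEX3, which recruits membrane proteins, was higher by 0.29 ± 0.06 in Gcn5m and 0.19 ± 0.06 in Spt7m, where the call was lost on leaving out WT sucrose library 1 or 2 (log2 0.15 to 0.16, adjusted p = 0.0516 to 0.0581). PEX19, for their chaperone, was lower in Gcn5m (-0.20 ± 0.07), a call lost with median rescaling, and on leaving out Gcn5m sucrose library 3, or WT sucrose library 3 (log2 -0.12 to -0.17, adjusted p = 0.06 to 0.0676).

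Of the 4 genes for division and inheritance, none was higher and 1 was lower in Gcn5m in sucrose, and 1 was higher and 1 lower in Spt7m. DNM1 had 48.6, 48.9 and 48.6 FPKM in Gcn5m in sucrose, 50.7, 49.4 and 57.5 FPKM in Spt7m in sucrose and 46.995, 47.96 and 49.5 FPKM in WT in sucrose. In glucose DNM1 had 29.4, 30.3 and 32.6 FPKM in Gcn5m, 28.4, 28.6 and 28.8 FPKM in Spt7m and 26.4, 25.9 and 25.2 FPKM in WT. In sucrose the DNM1 groups overlapped WT (0.02 ± 0.05, adjusted p = 0.806 in Gcn5m and 0.12 ± 0.05, adjusted p = 0.0529 in Spt7m), and in Spt7m DNM1 was called with quantile normalization, median rescaling or the replicate block, and on leaving out Spt7m sucrose library 1 or 2, or WT sucrose library 3 (log2 0.12 to 0.19, adjusted p = 0.00219 to 0.0474). FIS1, for the outer membrane anchor of the division machinery, did not pass the test in Gcn5m (-0.04 ± 0.06, adjusted p = 0.529) and was higher in Spt7m (0.16 ± 0.06), a call lost with only the compared groups fitted, and on leaving out Spt7m sucrose library 2, or WT sucrose library 1 or 2 (log2 0.10 to 0.16, adjusted p = 0.0514 to 0.148). INP1, which retains peroxisomes in the mother cell, had 10.04, 12.1 and 11.9 FPKM in Gcn5m in sucrose and 10.5, 12.2 and 12.3 FPKM in Spt7m in sucrose, against 15.9, 17.2 and 15.8 FPKM in WT in sucrose. All mutant values of INP1 lay below those of WT (-0.49 ± 0.10 and -0.45 ± 0.10). INP2, for the myosin receptor that carries peroxisomes to the bud, did not pass the test (0.01 ± 0.08, adjusted p = 0.893 and 0.03 ± 0.08, adjusted p = 0.786).

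Both oleate regulators were higher in the mutants in sucrose, PIP2 more than OAF1. PIP2 had 31.4, 29.8 and 28.98 FPKM in Gcn5m in sucrose, 27.8, 29.2 and 31.5 FPKM in Spt7m in sucrose and 18.4, 17.6 and 17.02 FPKM in WT in sucrose. In glucose PIP2 had 14.6, 13.5 and 13.7 FPKM in Gcn5m, 13.7, 14.1 and 13.2 FPKM in Spt7m and 11.9, 13.8 and 13.3 FPKM in WT. PIP2 in sucrose exceeded WT without overlap by 0.73 ± 0.06 in Gcn5m and 0.71 ± 0.06 in Spt7m. OAF1 had 23.99, 22.5 and 24.1 FPKM in Gcn5m in sucrose, 21.3, 19.7 and 24.2 FPKM in Spt7m in sucrose and 18.5, 17.1 and 17.9 FPKM in WT in sucrose. In glucose OAF1 had 21.3, 20.4 and 20.1 FPKM in Gcn5m, 18.5, 17.9 and 17.95 FPKM in Spt7m and 17.2, 16.2 and 16.9 FPKM in WT. OAF1 in sucrose also lay above WT in every mutant library, by 0.38 ± 0.06 in Gcn5m and 0.27 ± 0.06 in Spt7m, and in glucose Gcn5m alone passed the test (0.28 ± 0.06 in Gcn5m and 0.11 ± 0.06, adjusted p = 0.164 in Spt7m), although Spt7m was called with quantile normalization or median rescaling (log2 0.19 to 0.20, adjusted p = 0.00741 to 0.0184). The sucrose rises of OAF1 within Gcn5m (0.18 ± 0.06) and Spt7m (0.24 ± 0.06) were lost with both scalings, which gave -0.08 and -0.07 in Gcn5m and 0.01 and -0.02 in Spt7m.

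Among genes for metabolite proteins, LPX1 had the largest difference. LPX1 (YOR084W, chromosome XV, 480587 to 481750) encodes a lipase of the peroxisomal matrix. LPX1 had 166, 154 and 142 FPKM in Gcn5m in sucrose, 124, 124 and 132 FPKM in Spt7m in sucrose and 41.7, 36.6 and 35.3 FPKM in WT in sucrose. In glucose LPX1 had 24.8, 22.5 and 20.01 FPKM in Gcn5m, 25.6, 28.4 and 29.2 FPKM in Spt7m and 27.8, 33.5 and 30.4 FPKM in WT. LPX1 in sucrose lay above WT in every mutant library, while in glucose every Gcn5m library lay below every WT library. Its differences from WT in sucrose were 2.00 ± 0.08 in Gcn5m (adjusted p = 5.31e-13) and 1.72 ± 0.08 in Spt7m (adjusted p = 5.67e-12). With a pseudocount of 0.1 they were 2.02 and 1.74, below the 2.28 and 1.80 of PEX9. PXA2 had 21.2, 18.1 and 20.2 FPKM in Gcn5m in sucrose, 18.3, 19.4 and 18.9 FPKM in Spt7m in sucrose and 10.2, 10.2 and 10.6 FPKM in WT in sucrose. In glucose PXA2 had 6.38, 5.54 and 7.49 FPKM in Gcn5m, 5.58, 5.87 and 5.34 FPKM in Spt7m and 5.97, 6.69 and 7.25 FPKM in WT. PXA2, for a subunit of the long-chain acyl-CoA importer, was higher in sucrose by 0.88 ± 0.09 in Gcn5m and 0.81 ± 0.09 in Spt7m, again with no overlap. ANT1, for the ATP carrier of the membrane, was higher by 0.34 ± 0.06 in Gcn5m and 0.19 ± 0.06 in Spt7m, where the call was lost on leaving out WT sucrose library 2 or 3 (log2 0.16, adjusted p = 0.0512 to 0.0549). PCS60, for an acyl-CoA synthetase, was higher in Spt7m (0.17 ± 0.04) and did not pass the test in Gcn5m (0.08 ± 0.04, adjusted p = 0.0862), where it was called with quantile normalization or median rescaling, and on leaving out Gcn5m sucrose library 3 (log2 0.11 to 0.16, adjusted p = 0.0014 to 0.023).

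**Figure D3:**
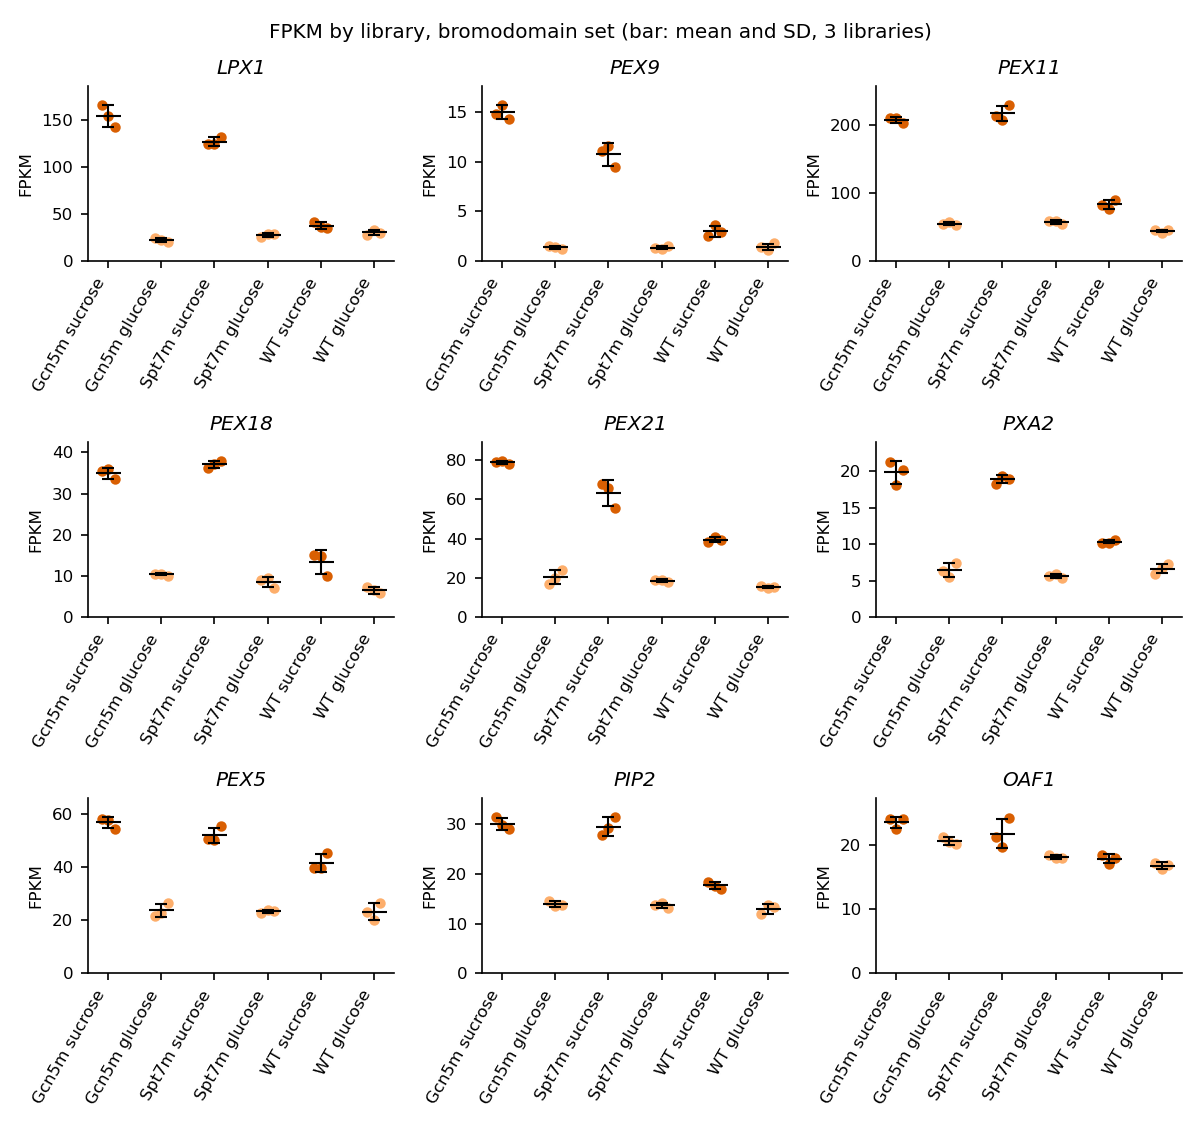
FPKM of 9 genes in each library of the bromodomain set (dots), with the mean and SD of 3 libraries (black), for Gcn5m, Spt7m and WT; dark dots are sucrose and light dots glucose. LPX1 and PEX9 reach 142 to 166 and 14.3 to 15.7 FPKM in Gcn5m in sucrose, against 35.3 to 41.7 and 2.5 to 3.59 FPKM in WT in sucrose, while OAF1 stays between 16.2 and 24.2 FPKM throughout.

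In glucose 14 of the 38 genes were higher and 5 lower in Gcn5m than in WT, where 62% of all genes were called (20.8% higher, 41.2% lower). With quantile normalization 19 were higher and 4 lower in Gcn5m, and with median rescaling 18 were higher and 4 lower. In Spt7m 8 were higher and 7 lower, where 53.2% were called (15.7% higher, 37.5% lower), or 11 higher and 5 lower with either scaling. The Spt7m total of 15 was 9 without WT in glucose replicate 3. PEX15 was higher by 0.63 ± 0.07 in Gcn5m and 0.33 ± 0.07 in Spt7m, and PEX10 by 0.61 ± 0.07 and 0.33 ± 0.07. PEX18 was higher by 0.60 ± 0.12 in Gcn5m and by 0.34 ± 0.12 in Spt7m, a call lost on leaving out Spt7m glucose library 1 or 2, or WT glucose library 2 or 3 (log2 0.27 to 0.34, adjusted p = 0.0504 to 0.112). PEX11 was higher by 0.30 ± 0.06 and 0.37 ± 0.06, and PEX17 was higher in Gcn5m (0.47 ± 0.10). PEX31 was lower by -0.55 ± 0.07 and -0.37 ± 0.07, INP1 by -0.50 ± 0.10 and -0.35 ± 0.10, and PEX19 by -0.33 ± 0.07 and -0.26 ± 0.07, where the INP1 call in Spt7m was lost on leaving out Spt7m glucose library 3, or WT glucose library 3 (log2 -0.22 to -0.29, adjusted p = 0.0531 to 0.0774). LPX1 was lower in Gcn5m (-0.43 ± 0.08) and PEX8, a bridge of the docking and RING complexes, in Spt7m (-0.30 ± 0.04). PIP2 did not pass the test in Gcn5m (0.10 ± 0.06, adjusted p = 0.176) or in Spt7m (0.07 ± 0.06, adjusted p = 0.352), and in Gcn5m it was called with quantile normalization or median rescaling (log2 0.18 to 0.20, adjusted p = 0.0128 to 0.0267).

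The interaction, the sucrose change of a mutant minus that of its WT, asks directly whether the response differed. In Gcn5m 17 of the 38 genes had a larger sucrose change than WT and 1 a smaller one, where 41.6% of all genes were called (20.9% higher, 20.7% lower). In Spt7m 21 had a larger change and none a smaller one, where 47.5% were called (23.9% higher, 23.5% lower). Of the 17 import genes, 11 in Gcn5m and 10 in Spt7m had a larger change, all 5 receptor and co-receptor genes in Gcn5m and 4 in Spt7m, where PEX5 did not pass the test (0.30 ± 0.12, adjusted p = 0.0533) but was called with median rescaling or the replicate block, and on leaving out WT glucose library 2, or WT sucrose library 3 (log2 0.28 to 0.39, adjusted p = 0.00907 to 0.0425). In both mutants the largest interactions were of LPX1 (2.43 ± 0.12 in Gcn5m and 1.85 ± 0.12 in Spt7m) and PEX9 (2.02 ± 0.16 and 1.59 ± 0.16). PEX11 had 1.01 ± 0.08 in Gcn5m and 1.00 ± 0.08 in Spt7m, PXA2 0.91 ± 0.12 and 1.02 ± 0.12, and PEX18 0.75 ± 0.17 and 1.09 ± 0.17. PIP2 had 0.63 ± 0.09 in Gcn5m and 0.63 ± 0.09 in Spt7m, whereas OAF1 did not pass the test (0.10 ± 0.09, adjusted p = 0.397 and 0.16 ± 0.09, adjusted p = 0.15), and in Spt7m was called on leaving out Spt7m sucrose library 2 (log2 0.22, adjusted p = 0.0392). The one smaller change was of DNM1 in Gcn5m (-0.23 ± 0.08), and its call was lost on leaving out Gcn5m glucose library 3, or WT glucose library 3, or WT sucrose library 3 (log2 -0.18 to -0.21, adjusted p = 0.0532 to 0.0656).

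The interaction of Ada3-3KR with sucrose was negative for 14 of the 38 genes and positive for 1, where 38.8% of all genes were called (17.2% higher, 21.6% lower), and the median was -0.21 against -0.03 for all genes. With median rescaling 9 were negative and 1 positive. Within Ada3-3KR, 9 genes rose and 6 fell in sucrose, where 50.7% of genes were called (32.9% higher, 17.7% lower), but with quantile normalization 5 rose and 11 fell and with median rescaling 6 rose and 11 fell. The genes that rose most were PEX21 (0.43 ± 0.09), PEX25 (0.41 ± 0.05), PEX13 (0.39 ± 0.08) and PEX11 (0.31 ± 0.06). Those that fell most were PEX29 (-0.33 ± 0.05), FIS1 (-0.28 ± 0.05), PEX3 (-0.22 ± 0.04) and PEX8 (-0.20 ± 0.06), where the PEX8 call was lost on leaving out Ada3-3KR glucose library 3, or Ada3-3KR sucrose library 1 (log2 -0.16 to -0.18, adjusted p = 0.053 to 0.0643).

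Some import genes differed between strains in glucose and others in sucrose. Libraries of Ada3-3KR and WT in glucose did not overlap for 26 of the 38 genes, where 66.1% of all genes did not. In sucrose this held for 19 of the 38, where 61.9% of all genes did not overlap. PEX18 had 18.4, 16.6 and 18.8 FPKM in Ada3-3KR in sucrose and 17.8, 19.2 and 24.7 FPKM in Ada3-3KR in glucose. WT values of PEX18 were 18.4, 16.01 and 19.9 FPKM in sucrose and 10.9, 9.8 and 10.3 FPKM in glucose. Ada3-3KR in glucose thus read as high as WT in sucrose, and WT in glucose stood below all other libraries, giving 0.92 ± 0.11 for Ada3-3KR against WT in glucose and an interaction of -0.93 ± 0.15. PEX5 had 27.97, 26.4 and 25.99 FPKM in Ada3-3KR in sucrose and 26.1, 25.5 and 26.3 FPKM in Ada3-3KR in glucose. WT values of PEX5 were 27.7, 29.1 and 26.6 FPKM in sucrose and 18.7, 21.5 and 18.9 FPKM in glucose. For PEX5 WT in glucose also stood below all other libraries, but Ada3-3KR in glucose lay below WT in sucrose (0.38 ± 0.06 for Ada3-3KR against WT in glucose, interaction -0.43 ± 0.08). PEX7 had 28.4, 24.5 and 29.4 FPKM in Ada3-3KR in sucrose and 28.1, 28.3 and 27.1 FPKM in Ada3-3KR in glucose. WT values of PEX7 were 34.4, 35.9 and 39.4 FPKM in sucrose and 25.2, 29.2 and 30.4 FPKM in glucose. WT in sucrose stood above every Ada3-3KR library for PEX7, with -0.40 ± 0.08 for Ada3-3KR against WT in sucrose. PEX2 averaged 82.99 ± 4.93 FPKM in Ada3-3KR in sucrose and 86.4 ± 1.2 FPKM in Ada3-3KR in glucose, against 120.4 ± 4.39 FPKM in WT in sucrose and 91.2 ± 0.785 FPKM in WT in glucose (SD, n = 3), with an interaction of -0.46 ± 0.06. PEX10 had 26.2, 26.6 and 26.2 FPKM in Ada3-3KR in sucrose and 23.3, 24.5 and 26.4 FPKM in Ada3-3KR in glucose. WT values of PEX10 were 32.7, 35.8 and 31.8 FPKM in sucrose and 23.1, 27.6 and 25.4 FPKM in glucose. WT in sucrose stood above every other library for PEX10, with -0.33 ± 0.07 for Ada3-3KR against WT in sucrose and an interaction of -0.30 ± 0.10, a call lost on leaving out Ada3-3KR glucose library 3, or WT glucose library 1, or WT sucrose library 2 (log2 -0.24 to -0.25, adjusted p = 0.0601 to 0.0616).

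PEX9 had 1.83, 1.78 and 1.79 FPKM in Ada3-3KR in sucrose and 1.9, 1.36 and 1.5 FPKM in Ada3-3KR in glucose. WT values of PEX9 were 1.75, 1.76 and 1.59 FPKM in sucrose and 1.17, 1.1 and 1.04 FPKM in glucose. PEX9 was thus the lowest of the 38 in both strains, with Ada3-3KR in sucrose just above WT. PEX21 had 20.3, 20.2 and 21.9 FPKM in Ada3-3KR in sucrose and 14.2, 15.8 and 15.8 FPKM in Ada3-3KR in glucose. WT values of PEX21 were 18.2, 24.6 and 20.6 FPKM in sucrose and 13.4, 15.7 and 13.5 FPKM in glucose. The PEX21 groups in sucrose overlapped. Neither gene passed the test there (0.05 ± 0.11, adjusted p = 0.684 for PEX9 and -0.01 ± 0.09, adjusted p = 0.931 for PEX21). In glucose PEX9 was higher in Ada3-3KR by 0.29 ± 0.11, a call lost with median rescaling or only the compared groups fitted, and on leaving out Ada3-3KR glucose library 1, or WT glucose library 2 or 3 (log2 0.21 to 0.29, adjusted p = 0.057 to 0.112). PEX14 had 44.8, 42.05 and 45.2 FPKM in Ada3-3KR in sucrose and 41.4, 42.7 and 35.4 FPKM in Ada3-3KR in glucose. WT values of PEX14 were 42.8, 45.1 and 47.2 FPKM in sucrose and 34.9, 36.3 and 34.3 FPKM in glucose. The PEX14 groups overlapped in both sugars. PEX17 had 21.1, 23.5 and 20.6 FPKM in Ada3-3KR in sucrose and 24.9, 23.4 and 24.5 FPKM in Ada3-3KR in glucose. WT values of PEX17 were 20.4, 23.6 and 21.6 FPKM in sucrose and 20.1, 20.3 and 19.4 FPKM in glucose. Ada3-3KR in glucose was higher than WT in glucose for PEX14 (0.17 ± 0.07) and PEX17 (0.27 ± 0.06), and the PEX17 groups overlapped in sucrose. The PEX14 call was lost with quantile normalization, median rescaling or only the compared groups fitted, and on leaving out Ada3-3KR glucose library 1 or 2, or WT glucose library 1 or 3 (log2 0.12 to 0.17, adjusted p = 0.0572 to 0.166). PEX4 had 41.3, 48.1 and 50.02 FPKM in Ada3-3KR in sucrose and 41.2, 45.5 and 41.4 FPKM in Ada3-3KR in glucose. WT values of PEX4 were 44.7, 41.9 and 43.5 FPKM in sucrose and 35.2, 40.4 and 35.5 FPKM in glucose. PEX4 lay higher in Ada3-3KR in glucose and overlapped in sucrose (0.20 ± 0.07 in glucose and 0.09 ± 0.07, adjusted p = 0.296 in sucrose). The glucose call was lost with quantile normalization or median rescaling, and on leaving out Ada3-3KR glucose library 2, or WT glucose library 1 or 3 (log2 0.14 to 0.17, adjusted p = 0.0627 to 0.114), and in sucrose PEX4 was called on leaving out Ada3-3KR sucrose library 1 (log2 0.17, adjusted p = 0.0465). PEX6 had 23.2, 25.04 and 25.6 FPKM in Ada3-3KR in sucrose and 20.4, 21.4 and 21.5 FPKM in Ada3-3KR in glucose. WT values of PEX6 were 22.02, 20.7 and 21.8 FPKM in sucrose and 17.9, 19.8 and 17.97 FPKM in glucose. Of these export genes PEX6 was higher in Ada3-3KR in both sugars without overlap (0.19 ± 0.06 in sucrose and 0.18 ± 0.06 in glucose), calls lost on leaving out Ada3-3KR sucrose library 3, or WT sucrose library 2 (log2 0.16, adjusted p = 0.0545 to 0.0585) and lost on leaving out WT glucose library 1 or 3 (log2 0.15 to 0.16, adjusted p = 0.0571 to 0.0592).

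Genes outside import had a mixed order. DNM1 had 46.9, 47.6 and 48.1 FPKM in Ada3-3KR in sucrose and 38.8, 39.7 and 43.5 FPKM in Ada3-3KR in glucose. WT values of DNM1 were 35.4, 35.1 and 33.9 FPKM in sucrose and 24.03, 25.9 and 24.3 FPKM in glucose. DNM1 was higher in Ada3-3KR in both sugars without overlap (0.44 ± 0.05 in sucrose and 0.69 ± 0.05 in glucose). PEX30, for an ER membrane-shaping protein, was also higher in both (0.45 ± 0.05 in sucrose, 49.01 ± 2.05 FPKM in Ada3-3KR and 35.6 ± 2.02 FPKM in WT; 0.63 ± 0.05 in glucose, 56.1 ± 0.902 FPKM in Ada3-3KR and 35.96 ± 0.644 FPKM in WT). PEX11 had 89.8, 86.8 and 93.05 FPKM in Ada3-3KR in sucrose and 68.6, 78.7 and 70.2 FPKM in Ada3-3KR in glucose. WT values of PEX11 were 75.6, 87.4 and 83.1 FPKM in sucrose and 71.3, 70.9 and 68.6 FPKM in glucose. PEX11 did not pass the test against WT in sucrose (0.13 ± 0.06, adjusted p = 0.0719) or in glucose (0.04 ± 0.06, adjusted p = 0.555), and in sucrose it was called on leaving out WT sucrose library 2 (log2 0.18, adjusted p = 0.0267). PEX32 had 21.3, 22.3 and 21.5 FPKM in Ada3-3KR in sucrose and 22.3, 18.2 and 24.6 FPKM in Ada3-3KR in glucose. WT values of PEX32 were 25.8, 25.5 and 26.2 FPKM in sucrose and 20.5, 19.2 and 19.7 FPKM in glucose. PEX32 rose in WT (0.37 ± 0.08), did not pass the test within Ada3-3KR (0.01 ± 0.08, adjusted p = 0.945) and was lower in Ada3-3KR in sucrose (-0.24 ± 0.08), a call lost on leaving out Ada3-3KR sucrose library 1 or 3, or WT sucrose library 3 (log2 -0.23 to -0.24, adjusted p = 0.0564 to 0.0586).

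Counting all 38, Ada3-3KR against WT gave 7 higher and 9 lower in sucrose, where 55.9% of genes were called (33.8% higher, 22.2% lower), and 22 higher and 1 lower in glucose, where 62.2% were called (40.2% higher, 22.1% lower). With either scaling 16 were higher and 2 lower in glucose, and 8 higher and 9 lower in sucrose. INP2 was higher in glucose (0.47 ± 0.09) and PEX15 was lower in both sugars (-0.35 ± 0.10 in sucrose and -0.37 ± 0.10 in glucose). PEX25 (0.41 ± 0.05) and PEX31 (0.31 ± 0.06) were higher in sucrose, and PEX27 was lower (-0.41 ± 0.10). PEX25 had the only positive interaction (0.24 ± 0.08), whose call was lost on leaving out Ada3-3KR glucose library 1 or 2, or Ada3-3KR sucrose library 3, or WT glucose library 2 or 3, or WT sucrose library 3 (log2 0.21 to 0.23, adjusted p = 0.0506 to 0.0654).

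Among metabolite genes of the Ada3 set, PXA2 had 8.36, 9.57 and 9.27 FPKM in Ada3-3KR in sucrose and 10.3, 10.7 and 9.72 FPKM in Ada3-3KR in glucose. WT values of PXA2 were 11.3, 11.8 and 11.5 FPKM in sucrose and 9.35, 9.31 and 7.86 FPKM in glucose. WT in sucrose stood above every other group, with -0.32 ± 0.08 for Ada3-3KR against WT in sucrose and an interaction of -0.51 ± 0.11. LPX1 had 44.3, 46.2 and 40.8 FPKM in Ada3-3KR in sucrose and 50.5, 48.1 and 46.04 FPKM in Ada3-3KR in glucose. WT values of LPX1 were 42.99, 41.7 and 48.9 FPKM in sucrose and 40.2, 38.8 and 38.8 FPKM in glucose. LPX1 rose in WT (0.17 ± 0.06), a call lost with quantile normalization, median rescaling, the replicate block or only the compared groups fitted, and on leaving out WT glucose library 1, 2 or 3, or WT sucrose library 3 (log2 0.05 to 0.19, adjusted p = 0.0521 to 0.604). It was higher in Ada3-3KR in glucose (0.29 ± 0.06) and had an interaction of -0.31 ± 0.09, lost with quantile normalization or median rescaling (log2 -0.24 to -0.26, adjusted p = 0.0509 to 0.0638). PIP2 had 13.6, 14.1 and 14.7 FPKM in Ada3-3KR in sucrose and 12.8, 12.3 and 12.5 FPKM in Ada3-3KR in glucose. WT values of PIP2 were 16.1, 15.2 and 13.96 FPKM in sucrose and 12.7, 12.9 and 12.8 FPKM in glucose. PIP2 did not pass the test against WT in sucrose (-0.09 ± 0.06, adjusted p = 0.243) or in glucose (-0.03 ± 0.06, adjusted p = 0.695), although in sucrose it was called with quantile normalization (log2 -0.16, adjusted p = 0.0276). Its rise within Ada3-3KR (0.16 ± 0.06) was lost with quantile normalization, median rescaling, the replicate block or only the compared groups fitted, and on leaving out Ada3-3KR glucose library 1, 2 or 3, or Ada3-3KR sucrose library 2 or 3 (log2 -0.03 to 0.18, adjusted p = 0.0509 to 0.654). OAF1 had 14.5, 15.3 and 14.9 FPKM in Ada3-3KR in sucrose and 13.5, 13.9 and 15.2 FPKM in Ada3-3KR in glucose, with all 12 libraries of the set between 13.5 and 15.9 FPKM, and passed no test (sucrose change 0.07 ± 0.06, adjusted p = 0.394; -0.03 ± 0.06, adjusted p = 0.732 in sucrose; -0.06 ± 0.06, adjusted p = 0.437 in glucose; interaction 0.03 ± 0.09, adjusted p = 0.817).

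**Figure D4:**
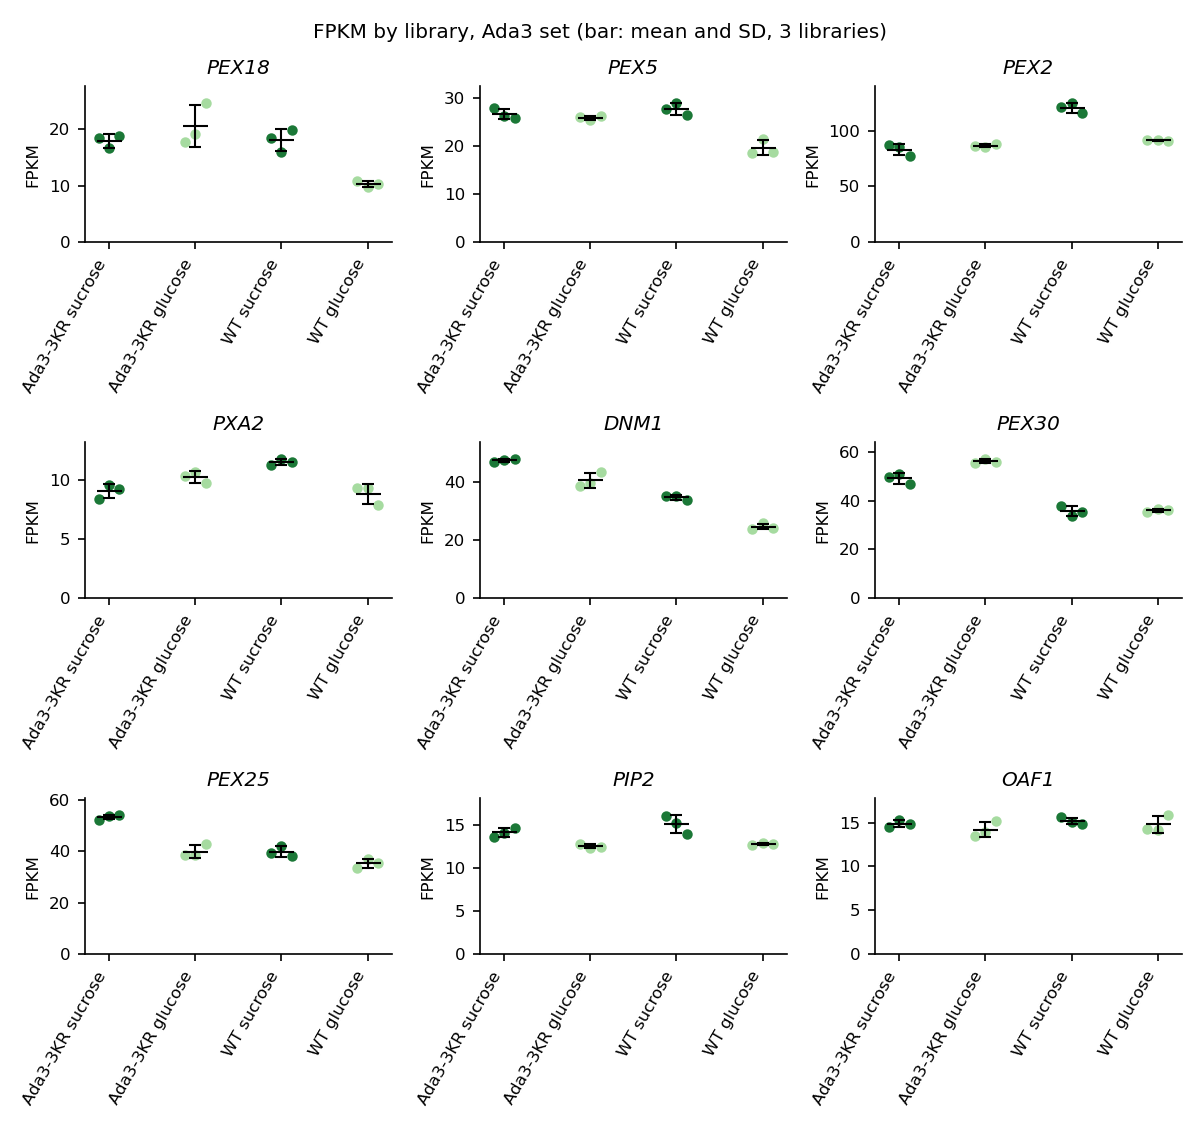
FPKM of 9 genes in each library of the Ada3 set (dots), with the mean and SD of 3 libraries (black), for Ada3-3KR and WT; dark dots are sucrose and light dots glucose. For PEX18 only WT in glucose (9.8 to 10.9 FPKM) stands apart from the other groups, for PEX2 WT in sucrose lies highest, and OAF1 stays between 13.5 and 15.9 FPKM in all libraries.

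**Figure D5:**
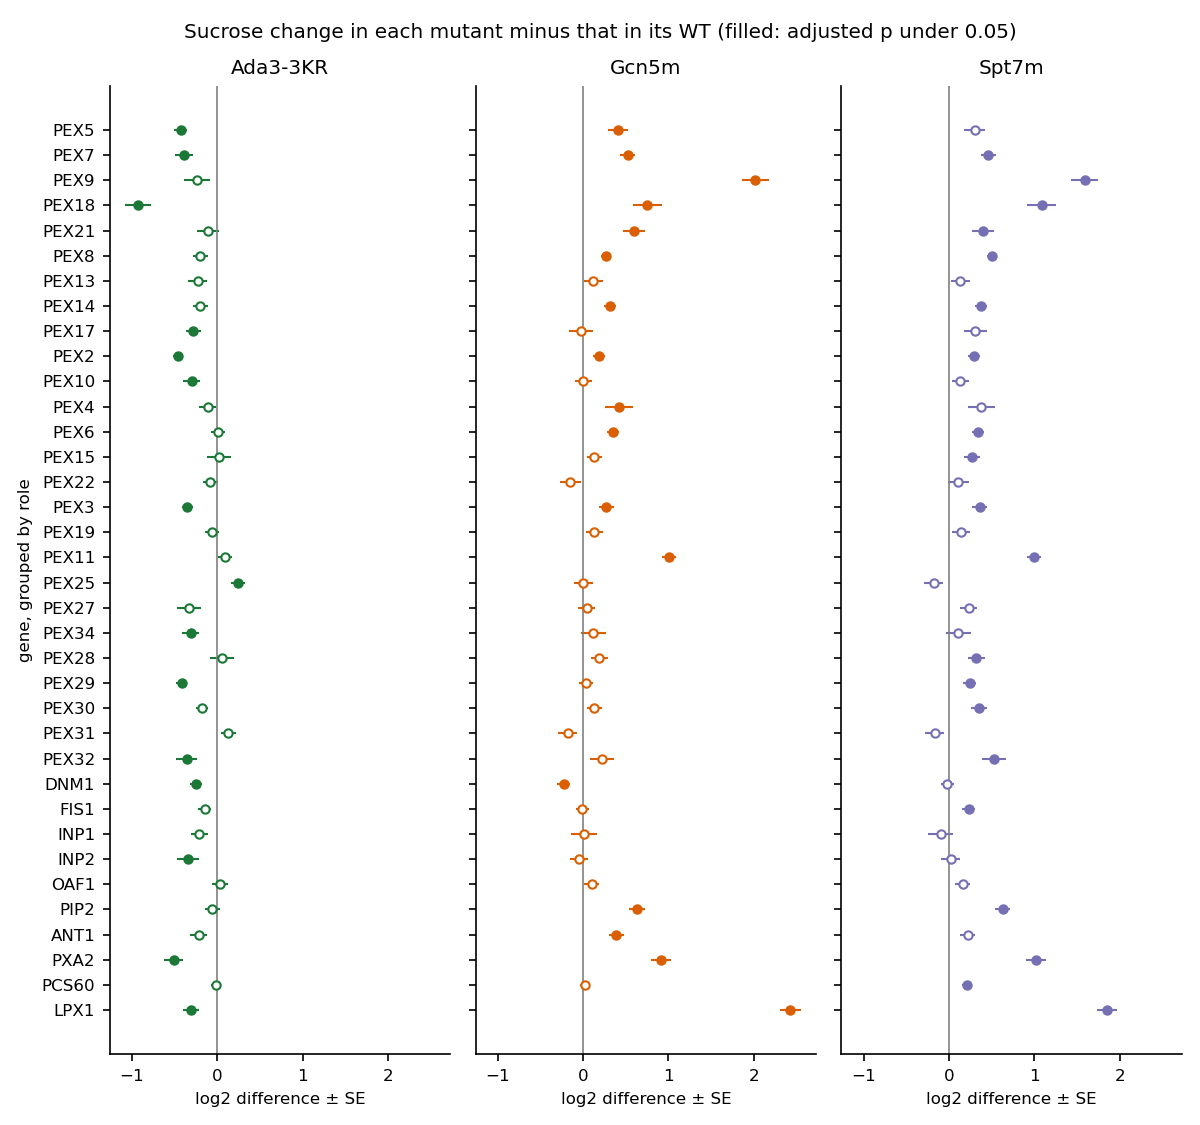
Sucrose change of each mutant minus that of its WT, as log2 difference ± SE (x axis) for 36 of the genes grouped by role (y axis), for Ada3-3KR, Gcn5m and Spt7m, 3 libraries a group; filled points have an adjusted p under 0.05. Filled points lie left of 0 for Ada3-3KR except PEX25, and right of 0 for Gcn5m except DNM1 and for Spt7m without exception.

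Genes with and without the letters of an oleate response element in the shorter window were set side by side, as a description with no test. In sucrose, 7 of the 8 genes with the element were higher in Gcn5m than in WT (median 0.44), against 18 of the 30 without it (median 0.24). In Spt7m it was 7 of 8 (median 0.39), against 20 of 30 (median 0.22). For the sucrose change in WT of the bromodomain set, 8 of 8 rose (median 0.50), against 23 of 30 (median 0.40). Among all genes 28% were higher in Gcn5m and 28.8% in Spt7m in sucrose, and 50.9% rose in that WT. The order was not the same in every comparison. The interaction was positive for 6 of 8 against 11 of 30 in Gcn5m (20.9% of all genes). In Spt7m it was positive for 4 of 8 against 17 of 30 (23.9% of all genes). In glucose, 4 of 8 were higher in Ada3-3KR than in WT, against 18 of 30 (medians 0.17 and 0.18, 40.2% of all genes). The pair with the largest differences, LPX1 and PEX9, is in the group without the element, and PEX13 is the gene with the element that passed the test in neither mutant.

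Other genes of the pathway, which are not among the 38, were read from lists. Of 21 further peroxisomal enzyme and transport genes, 15 were higher and 4 lower in Gcn5m than in WT in sucrose (median 1.31), and 15 were higher and 4 lower in Spt7m (median 1.00). Of all genes 28% and 28.8% were higher there, with medians of -0.09 and -0.08. Their interaction with sucrose was positive for 14 in Gcn5m (median 1.03, 2 negative) and for 14 in Spt7m (median 1.01, 1 negative). In Ada3-3KR it was negative for 15 and positive for 1 (median -0.49). Among all genes 20.9% had a positive interaction in Gcn5m and 23.9% in Spt7m, and 21.6% a negative one in Ada3-3KR. Against WT in glucose, 15 of the 21 were higher and 1 lower in Ada3-3KR (median 0.41, against 0.09 for all genes). In sucrose 6 were higher and 9 lower (median -0.02, against 0.05). Among all genes 40.2% were higher and 22.1% lower in glucose, and 33.8% higher and 22.2% lower in sucrose. POX1, for the acyl-CoA oxidase that opens beta-oxidation, had interactions of 2.25 ± 0.11 in Gcn5m, 2.25 ± 0.11 in Spt7m and -0.86 ± 0.09 in Ada3-3KR. CAT2, for carnitine acetyltransferase, had 1.80 ± 0.11, 1.99 ± 0.11 and -1.08 ± 0.10 in the same order. The 1 gene of the list that was lower in Ada3-3KR in glucose was CIT2 (-2.02 ± 0.04). Its sucrose change was 2.29 ± 0.04 in WT of the Ada3 set and 0.28 ± 0.04 in Ada3-3KR. MLS1, for malate synthase, rose in WT (3.13 ± 0.11 in the bromodomain set and 2.38 ± 0.08 in the Ada3 set), and its interactions were -0.03 ± 0.15, adjusted p = 0.884 in Gcn5m, 0.02 ± 0.15, adjusted p = 0.922 in Spt7m and -0.40 ± 0.12 in Ada3-3KR.

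ADR1 itself rose in sucrose in WT of both sets (1.96 ± 0.04 in the bromodomain set and 1.32 ± 0.05 in the Ada3 set). Against WT in sucrose it was higher in Gcn5m (1.08 ± 0.04) and Spt7m (0.81 ± 0.04) and lower in Ada3-3KR (-0.23 ± 0.05). In glucose the ADR1 difference from WT was 0.72 ± 0.05 for Ada3-3KR and 0.29 ± 0.04 for Gcn5m. For Spt7m in glucose it was -0.10 ± 0.04 (limma, adjusted p = 0.0496). Of 8 other regulator genes in the list, ADR1 included, 2 had a larger sucrose change than WT in Gcn5m and 3 in Spt7m, and 4 had a smaller one in Ada3-3KR. Of all genes, 20.9% had a larger change in Gcn5m and 23.9% in Spt7m, and 21.6% a smaller one in Ada3-3KR. MIG1, for a glucose repressor, had interactions of 0.49 ± 0.07 in Gcn5m, 0.45 ± 0.07 in Spt7m and -0.73 ± 0.09 in Ada3-3KR. Of 4 further division and inheritance genes, none was higher than WT in sucrose in Gcn5m or Spt7m, and 3 and 2 were lower, among them MYO2, the myosin that moves organelles to the bud (-0.52 ± 0.05 in Gcn5m and -0.62 ± 0.05 in Spt7m). Of all genes 42.6% and 41.5% were lower in these comparisons.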

How the data were processed

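Yeast RNA from 30 libraries was measured by Illumina sequencing. The authors deposited 2 tables of FPKM values per gene, and every column was used. Per the submitters' processing notes, the tools were HISAT2 2.1.0, cutadapt 1.16 and StringTie 1.3.3b, with R64 as the build and no role given for any tool. The annotation and the strand setting are not given in the sources used here. Depth is unknown, because low FPKM values do not fall on whole-read steps, so intervals on counts cannot be given.

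Each table was fitted separately as log2(FPKM + 1), a scale that understates the change of low genes, with limma 3.58.1 in R 4.3.3, a mean-variance trend and 1 mean per group. The test took the 5830 and 5841 genes whose mean reached 1 FPKM in their table, in 14 comparisons, with Benjamini-Hochberg adjustment over all of them at 0.05. The fit was tested on simulated data. Summaries used Python 3.11.15, pandas 2.3.3 and matplotlib 3.10.9. The 38 genes and the lists were chosen with earlier results of these data known. Log2 changes are given in each comparison for OAF1, PIP2 and PEX11 and for up to 4 genes each with the largest rise and fall, and values in every library for up to 16 genes called in many comparisons, with OAF1. Further genes were named by role after their values were seen. PEX9, missing from the role lists as first written, was added to the receptors. PEX35 was not in the tables under that name and was not analysed here. Counts and medians cover all 38 genes, of which 36 are shown by name, and the rest are not reported here.

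Same-numbered libraries were checked for pairing: deviations from group means correlated at 0.12 to 0.41 between WT in sucrose and WT in glucose of the Ada3 set, the one pair of groups with every value over 0.1. Alternatives were another pseudocount (0.1), median rescaling or quantile normalization of the libraries, no filter or one at 5 FPKM, fits of the compared groups alone, a block for replicate number, and fits with single libraries left out.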

Additional observations from a re-analysis of the deposited data

Results flagged for a closer look

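The sucrose change differed between a mutant and its WT, by the test of that difference (limma, adjusted p under 0.05), for 18 of the 38 genes in Gcn5m, 21 in Spt7m and 15 in Ada3-3KR. Of all tested genes, 41.6%, 47.5% and 38.8% were called in the same order, so these totals alone do not set the 38 apart. The values below are those chosen by the rule for named genes, up to 4 in each direction and mutant with the oleate regulators and PEX11 where they passed. In Gcn5m the difference was 2.43 on the log2 scale for LPX1, 2.02 for PEX9, 1.01 for PEX11, 0.91 for PXA2 and 0.63 for the oleate regulator PIP2, and it was -0.23 for DNM1. In Spt7m it was 1.85 for LPX1, 1.59 for PEX9, 1.09 for PEX18, 1.02 for PXA2, 1.00 for PEX11 and 0.63 for PIP2. In Ada3-3KR it was -0.93 for PEX18, -0.51 for PXA2, -0.46 for PEX2 and -0.43 for PEX5, and it was 0.24 for PEX25. The DNM1 and PEX25 calls were lost when single libraries were left out, as given above. URA3 RNA was high in both bromodomain mutants, and its part in these differences was not tested.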

How the results depend on the processing

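Of 14 counts of called genes, taken as totals of both directions, 2 moved by over 1.5 times. WT of the Ada3 set had 16 called genes with quantile normalization and 16 with median rescaling, against 26. Spt7m against WT in glucose had 9 without WT in glucose replicate 3, against 15. Totals hide shifts of direction. With quantile normalization, sucrose in Ada3-3KR went from 9 higher and 6 lower to 5 and 11. WT of the bromodomain set went from 31 higher and 0 lower to 21 and 6. With single libraries left out, called genes numbered 20 to 25 for sucrose in WT of the Ada3 set, 29 to 31 in WT of the bromodomain set, 12 to 15 in Ada3-3KR, 33 to 34 in Gcn5m and 36 to 37 in Spt7m. Against WT they numbered 17 to 23 in glucose and 12 to 16 in sucrose for Ada3-3KR, 16 to 20 and 26 to 28 for Gcn5m, and 9 to 16 and 25 to 29 for Spt7m. Interactions gave 10 to 15 in Ada3-3KR, 14 to 18 in Gcn5m and 20 to 24 in Spt7m. Of the values per gene, 3503 kept call and direction under other settings, 126 lost a call, 67 gained one and 23 turned sign, and with libraries left out 3629 kept both, 205 lost a call and 42 gained one. All turned signs were sucrose changes under quantile normalization or median rescaling, and the cause was not tested. In WT of the bromodomain set they were -0.00 and -0.03 for FIS1, -0.17 and -0.17 for OAF1, -0.01 and -0.03 for PEX19, -0.20 and -0.18 for PEX27, and -0.00 and -0.00 for PEX32 (quantile first). In Gcn5m they were -0.06 and -0.05 for FIS1, -0.08 and -0.07 for OAF1, and -0.23 and -0.23 for PEX29. In Spt7m they were -0.17 and -0.12 for PCS60 and -0.03 and -0.03 for PEX29, and with median rescaling alone -0.25 for INP1 and -0.02 for OAF1. PIP2 in Ada3-3KR was -0.03 with quantile normalization. The replicate block changed 11 of 532 calls, of which 7 were lost and 4 gained. The labels number the replicates but state no pairing. For sucrose in WT of the Ada3 set the block left 24 called genes, with LPX1 (0.17, adjusted p = 0.0539) and PEX19 (0.15, adjusted p = 0.0646) lost. With 3 libraries a group and unknown depth, small changes of low genes such as PEX9 in the Ada3 set are the least certain.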
